A study of Mus musculus with 6 samples.

Results

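The enzymes described here make serine and glycine and pass their carbon to folate. They were taken as the probe sets whose single gene symbol in the platform annotation was Gldc, Amt, Gcsh, Shmt1, Shmt2, Phgdh, Psat1, Psph, Mthfd1 or Mthfd2. Of these 10 genes, 9 had at least 1 such probe set, out of 18193 genes so named on the arrays, and together they had 22 of the 45037 probe sets left after controls were removed. Amt was not analysed here. The genes were chosen by their known roles with the difference of their signals between 10 and 5 weeks in view, above all that of Gldc, so the signals that follow are a description of them and carry no test.

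The RNA came from the mammary glands of female mice at 5 and at 10 weeks of age, with 3 arrays per age and pooled RNA of 3 animals on each array. All of the mice, at both ages, were bitransgenic: they combined the transgene of what the labels call the LH mouse with that of the MMTV-neu mouse. In MMTV-neu mice the promoter of the mouse mammary tumour virus drives the neu (Erbb2) oncogene in mammary epithelium. No mice with a single transgene and no wild-type mice are among these samples, and the gland is a mixture of cell types. Age is therefore the only comparison, and it answers how these transcripts differed in bitransgenic glands between 5 and 10 weeks.

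Serine is made from the glycolytic intermediate 3-phosphoglycerate by the successive action of PHGDH, PSAT1 and PSPH. Serine hydroxymethyltransferase, SHMT1 in the cytosol and SHMT2 in mitochondria, converts serine to glycine and loads a carbon unit onto tetrahydrofolate. The mitochondrial glycine cleavage system, built from GLDC, AMT, GCSH and the shared subunit DLD, breaks glycine down and loads a further unit, and the MTHFD enzymes interconvert the loaded folates for purine, thymidylate and methionine synthesis. In the mammary gland, serine and glycine are also building blocks of milk protein.

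The gene starts of 3 members are given as examples, picked by their differences and not to stand for the group. Gldc and Phgdh had the largest positive differences and Mthfd1 the largest negative one, and the 250 bases before each RefSeq start site (GRCm38.p6) are printed 5′ to 3′ on the gene's own strand, with the CCAAT box or its reverse complement ATTGG in capitals.
Gldc, chr19:30175442-30175691, minus strand: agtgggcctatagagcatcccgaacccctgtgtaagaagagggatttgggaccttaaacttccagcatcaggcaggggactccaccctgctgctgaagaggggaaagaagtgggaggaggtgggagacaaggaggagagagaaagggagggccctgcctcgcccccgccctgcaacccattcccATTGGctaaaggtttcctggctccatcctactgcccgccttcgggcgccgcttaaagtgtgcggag
Phgdh, chr3:98339970-98340219, minus strand: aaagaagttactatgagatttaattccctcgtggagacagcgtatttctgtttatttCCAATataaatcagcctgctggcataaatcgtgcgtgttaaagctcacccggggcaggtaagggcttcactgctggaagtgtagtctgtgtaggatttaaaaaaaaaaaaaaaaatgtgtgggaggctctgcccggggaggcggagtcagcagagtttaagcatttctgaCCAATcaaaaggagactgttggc
Mthfd1, chr12:76254982-76255231, plus strand: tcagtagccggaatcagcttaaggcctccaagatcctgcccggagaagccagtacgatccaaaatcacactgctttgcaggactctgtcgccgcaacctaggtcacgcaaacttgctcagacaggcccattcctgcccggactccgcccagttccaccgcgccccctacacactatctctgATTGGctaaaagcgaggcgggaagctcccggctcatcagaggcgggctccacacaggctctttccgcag
The RefSeq table held 11 such windows for the 10 genes, with a second start for Psat1. CCAAT, searched on both strands, was present in 9 of the 11 windows, against 33.8% of 32851 windows of the same length for all genes. It occurred once in the Gldc and the Mthfd1 window and at 2 positions in that of Phgdh, and it was in neither the Shmt2 window nor 1 of the pair for Psat1. GGGCGG was present in 7 of the 11 windows and in 32.7% of all windows. TTCNNNGAA, the letters of a STAT site, was found in 1 of the 11, that of Shmt2, and in 7.0% of all windows. TGATGNAA, the letters of a composite site for C/EBP and ATF factors, and CACGTG were in none of the 11, and in 3.5% and 6.0% of all windows. A match is only a run of letters in this window, and no binding was measured.

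Gldc, the decarboxylase subunit that starts glycine cleavage, had the largest difference of the group. Its signal was 1667.4, 1740.7 and 1940.5 at 10 weeks and 188.4, 152.7 and 71.6 at 5 weeks. Every 10-week pool lay far above every 5-week pool, and the 5-week values lay around or below the median of all probe sets on an array, which was 156.4 to 172.5. The 10-week pools averaged 1783 ± 141 (SD, n = 3) and the 5-week pools 138 ± 59.9 (SD, n = 3), which is a ratio of 13.0. On the scale of log2(signal + 32), on which the differences of dim genes come out too small, it was 3.49 ± 0.25 (SE). The same difference was 3.79 with an offset of 1 and 3.02 with an offset of 100, so its size depends on how the dim 5-week signals are treated. Only 4 of 13002 genes had a larger positive difference.

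Gcsh and Dld were the other measured subunits of glycine cleavage. Gcsh encodes the H protein, which carries the aminomethyl group between subunits on a lipoyl arm. Its signal was 2845.4, 3218.7 and 3578.7 at 10 weeks and 3276.6, 3886.8 and 4474.8 at 5 weeks, so the ages overlapped. The log2 difference was -0.26 ± 0.13 (SE). Dld, the lipoamide dehydrogenase that glycine cleavage shares with the pyruvate and 2-oxoglutarate dehydrogenase complexes, is not a member and differed by -0.12 ± 0.12 (SE) on the log2 scale, short of limma's threshold (adjusted p = 0.493).

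**Figure D1:**
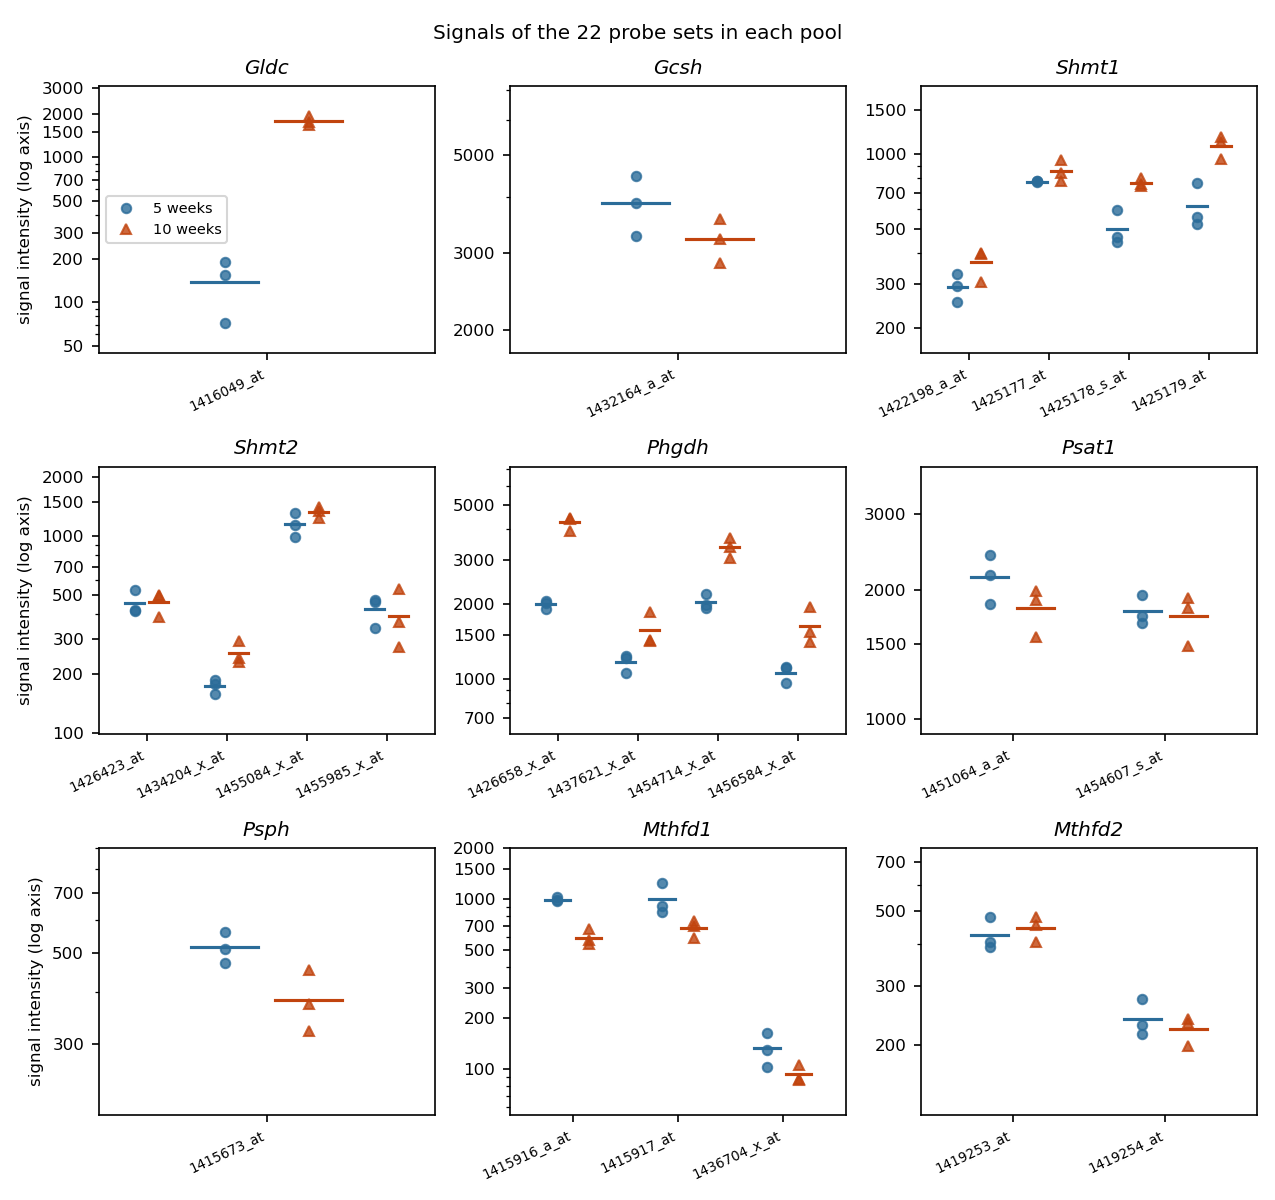
Signal intensity (log axis) of the 22 probe sets of the 9 measured genes, 1 panel per gene with its own range; circles are the 5-week pools, triangles the 10-week pools and bars the means of 3 pools. The Gldc pools at 10 weeks (1667.4 to 1940.5) stand apart from those at 5 weeks (71.6 to 188.4), and the 4 probe sets of Phgdh are all higher at 10 weeks, while the pools of Psat1, Mthfd2 and Gcsh overlap.

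Phgdh, the dehydrogenase that commits 3-phosphoglycerate to serine, was higher at 10 weeks on all 4 of its probe sets. On the brightest, 1426658_x_at, the signal was 3950.3, 4456.7 and 4400.7 at 10 weeks and 2067, 1917.7 and 2016.9 at 5 weeks. The ages did not overlap, and the spread within an age was small beside the gap: 4269 ± 278 (SD, n = 3) against 2001 ± 76.0 (SD, n = 3), a ratio of 2.13 and a log2 difference of 1.08 ± 0.09 (SE). The other 3 probe sets gave log2 differences of 0.72 ± 0.11 (1454714_x_at), 0.60 ± 0.14 (1456584_x_at) and 0.41 ± 0.13 (1437621_x_at, each with its SE), also without overlap. All 4 carry the suffix _x_at, which marks probe sets with some probes that match other transcripts. A pair of further probe sets is annotated to Phgdh together with a predicted gene and lies outside the rule. Of these, 1426657_s_at, shared with Gm8096, had 1083 ± 119 (SD, n = 3) in the older glands against 633 ± 54.9 (SD, n = 3) in the younger. The other, 1456471_x_at, shared with Gm6756, had 2412 ± 353 (SD, n = 3) and 2624 ± 689 (SD, n = 3), with overlapping ages. The probe sets that touch Phgdh thus ranged from a log2 difference of -0.10 on the Gm6756 probe set to 1.08 on the brightest single-gene probe set.

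The enzymes after PHGDH did not share its difference. Psat1, the aminotransferase of the next step, had signals of 1557.2, 1991.7 and 1892.6 at 10 weeks and 2167.9, 1853.7 and 2416.7 at 5 weeks on 1451064_a_at, a log2 difference of -0.24 ± 0.13 (SE). Its other probe set, 1454607_s_at, gave -0.05 ± 0.12 (SE), and the ages overlapped on both. Psph, the phosphatase that releases serine, had 322, 374.2 and 454.9 at 10 weeks and 512, 563 and 471.3 at 5 weeks. The ages of Psph did not overlap, with a mean of 384 ± 67.0 (SD, n = 3) against 515 ± 45.9 (SD, n = 3) and a log2 difference of -0.41 ± 0.16 (SE). The gap between the highest 10-week pool (454.9) and the lowest 5-week pool (471.3) was smaller than the SD of either age.

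Shmt1, the cytosolic serine hydroxymethyltransferase, had 4 probe sets that differed in size. On 1425179_at the signal was 1175.9, 1118.2 and 958.1 at 10 weeks and 558.6, 525.8 and 768.5 at 5 weeks. That is a ratio of 1.76 and a log2 difference of 0.79 ± 0.16 (SE), without overlap. On 1425178_s_at, where the ages did not overlap either, it was 0.59 ± 0.14 (SE). The remaining probe sets, 1422198_a_at and 1425177_at, gave 0.30 ± 0.16 (SE) and 0.13 ± 0.12 (SE) with overlapping ages. The last of these had the highest mean on the log2 scale and was nearly level at 5 weeks, with 779, 778.4 and 770.4, against 844, 779 and 948.6 at 10 weeks. The direction was shared by all 4 probe sets, but the size was not: it ran from a ratio of 1.10 to 1.76.

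Shmt2, the mitochondrial form, showed no common direction. Its brightest probe set, 1455084_x_at, had 1238.2, 1408.7 and 1338.9 at 10 weeks and 1138.1, 994.4 and 1313.1 at 5 weeks, with overlap and a log2 difference of 0.21 ± 0.13 (SE). Only the dim 1434204_x_at kept the ages apart, with 253 ± 34.0 (SD, n = 3) against 173 ± 14.0 (SD, n = 3), a log2 difference of 0.47 ± 0.16 (SE). The probe sets 1426423_at and 1455985_x_at gave 0.01 ± 0.16 (SE) and -0.14 ± 0.23 (SE). The sign of both changed when single pools were left out, and 1455985_x_at had the widest spread of the group at 10 weeks (coefficient of variation 34.4%).

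Among the folate-interconverting enzymes, the cytosolic Mthfd1 was lower at 10 weeks. Its product joins several activities of the folate cycle in a single chain. On 1415916_a_at the signal was 542.2, 669.8 and 574.6 at 10 weeks and 986.9, 1024.9 and 974.5 at 5 weeks. Every 10-week pool lay below every 5-week pool, with 596 ± 66.3 (SD, n = 3) against 995 ± 26.3 (SD, n = 3), a ratio of 0.598 and a log2 difference of -0.72 ± 0.12 (SE). The brightest probe set, 1415917_at, gave -0.53 ± 0.17 (SE), also without overlap. This value was -0.36 without 5-week pool 3, whose signal of 1250.6 was the highest. The dim 1436704_x_at gave -0.38 ± 0.20 (SE), with 86.6 to 106 at 10 weeks and 103.5 to 164.6 at 5 weeks. Mthfd2, the mitochondrial dehydrogenase and cyclohydrolase that many proliferating cells use, had 481, 455.1 and 406.6 at 10 weeks and 406.3, 482.1 and 392.5 at 5 weeks on 1419253_at. The ages overlapped on both of its probe sets, with log2 differences of 0.07 ± 0.14 (SE) and -0.09 ± 0.16 (SE).

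**Figure D2:**
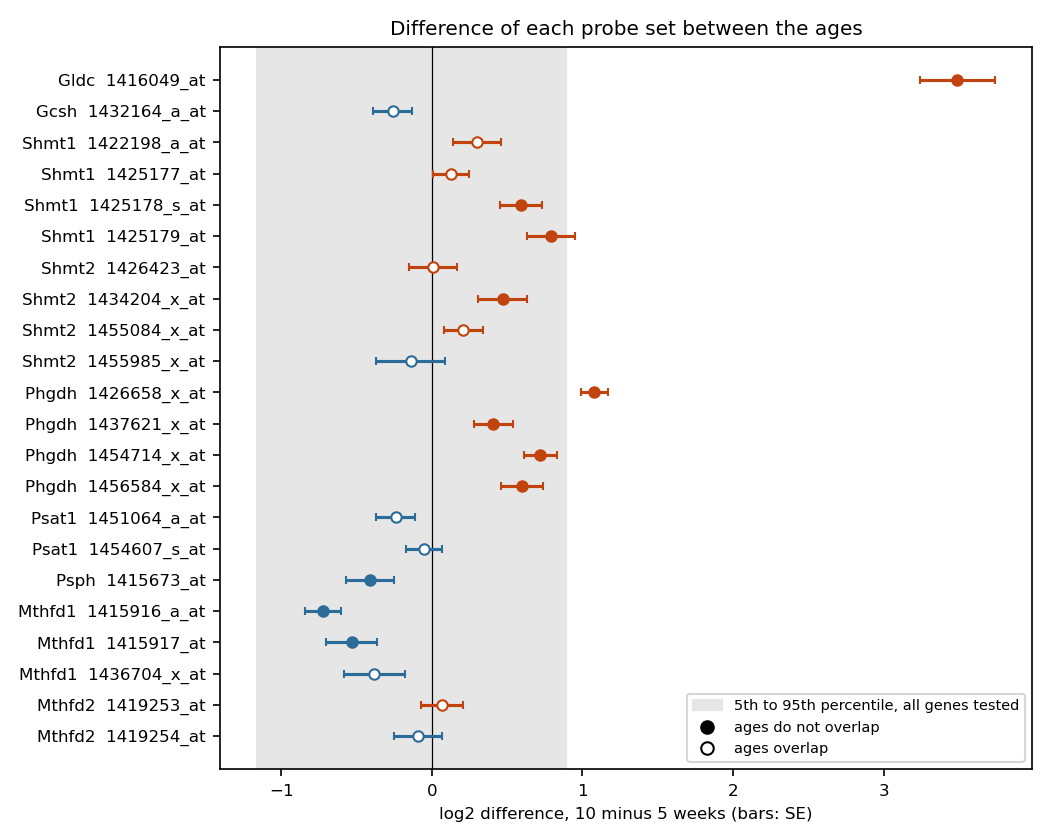
Log2 difference of each of the 22 probe sets, 10 minus 5 weeks, with its SE; filled points are probe sets whose ages do not overlap, and the grey band spans the 5th to 95th percentile of the differences of all genes tested (-1.16 to 0.89). Gldc (3.49) and the brightest Phgdh probe set (1.08) lie above the band and no probe set lies below it.

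By compartment, the mitochondrial members Gldc, Gcsh, Shmt2 and Mthfd2 ranged from a log2 difference of -0.26 to 3.49 on their brightest probe sets, and the cytosolic members Phgdh, Psat1, Psph, Shmt1 and Mthfd1 from -0.53 to 1.08, so neither compartment had 1 direction. The median over the 9 genes was 0.07, beside 0.00 over all 13002 genes tested. All 22 probe sets passed the filter on low signal. The ages did not overlap for 11 of the 22, of which 8 were higher and 3 lower at 10 weeks, and 45.1% of all 27022 probe sets tested did not overlap either. On brightest probe sets it was 4 of 9 genes, beside 50.3% of all genes. In the limma fit over all probe sets, 7 of the 22 were past the adjusted threshold of 0.05 with a higher signal. Of all probe sets, 13.4% were. The 7 belonged to Gldc, Phgdh and Shmt1 only, and the 8 higher without overlap to these genes and Shmt2. Probe sets of 1 gene are not separate observations. Lower and past the threshold were 2 of the 22, both of Mthfd1, where 15.3% of all probe sets were. On brightest probe sets, 2 of 9 genes were past it with higher signal (Gldc and Phgdh) and 1 with lower (Mthfd1), beside 15.3% and 18.7% of all genes. The lower count was 0 without 10-week pool 1 or 2 or 5-week pool 2 or 3. Without 10-week pool 3 it was 1, but that gene was Psph, and Mthfd1 lost its call. Among the single pools left out, Mthfd1 kept its call only without 5-week pool 1. The higher count was 3 without 5-week pool 1 or 2, with Shmt1 added. Another Shmt1 probe set, 1425179_at, was then the brightest, with 0.73 and 0.69, while 1425177_at gave 0.14 in both fits. The members were proposed with this contrast known, and nothing is read from these counts or from their changes.

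Within an age, the pools varied together to some degree. At 10 weeks, pool 1 held the lowest signal of its age for 13 of the 22 probe sets and pool 2 the highest for 13, where the shares over all probe sets tested were 35.5% and 35.6%. At 5 weeks, pool 3 held the highest signal for 12 of the 22, where 33.1% of all probe sets did. Probe sets of 1 gene share their transcript, so these are not 22 separate observations. Gldc differed from this order, as its highest signal at 5 weeks was in pool 1 and its lowest in pool 3. The difference of Gldc was 3.17 to 3.71 when any 1 pool was left out, and that of the brightest Phgdh probe set 1.05 to 1.13.

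By root mean square distance between centred log2 profiles over the 6 pools, the genes outside the group most like Gldc were Olah (0.30), Hephl1 (0.32), Mmp12 (0.39), Ceacam10 (0.39) and 1700012B07Rik (0.40). Olah encodes the thioesterase that ends milk fatty acid chains at medium length. Hephl1, a multicopper ferroxidase gene, had 2043.4, 1811.2 and 1717.4 at 10 weeks and 287.1, 278.3 and 120.5 at 5 weeks. In all 5, as in Gldc, the lowest signal was in 5-week pool 3, where 38.2% of all probe sets had the lowest value of that age. The 5 were chosen for likeness over these same pools, and the likeness rests on 6 pools and mostly on the step between the ages.

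Beside these values, the cell type markers of the gland also differed with age. All 12 luminal epithelial markers were measured, none below a signal of 458, and their summed signal was 66050 to 76015 at 10 weeks and 35126 to 45004 at 5 weeks, a ratio of 1.69. The ratio was 1.20 for 8 basal and myoepithelial markers, 0.750 for 7 adipocyte, 0.663 for 6 fibroblast, 0.590 for 6 endothelial, 0.747 for 6 macrophage and 0.785 for 6 cycling-cell markers, with no overlap between the ages in any of these sums. The sums are carried by their brightest genes, and single markers differed from them. In limma's test, 9 luminal markers rose and 1 fell (Krt7, ratio 0.569), and 4 basal markers rose and 2 fell (Krt17 and Oxtr). Among the macrophage markers 3 fell and 1 rose (Adgre1, ratio 1.35). Of the cycling-cell markers 2 fell, Top2a and Mcm5, and the other 4 overlapped between the ages, with a ratio of 1.11 for Mki67. Of the adipocyte markers 4 fell, as did 5 fibroblast and 5 endothelial markers. The genes named singly here were picked after their values were seen. The sums of the 6 lymphocyte markers overlapped, as did each marker but Cd8a (ratio 1.34), and none was called. Their sum was 5463 in 5-week pool 2, against 1748 and 1417 in the other 5-week pools and 2045 to 2734 at 10 weeks. The 8 skeletal muscle markers summed to 5517 in 10-week pool 1 and to 40167 and 43520 in the other 10-week pools. At 5 weeks they summed to 53997 to 92430, so muscle RNA was in the samples and lowest in 10-week pool 1. Of these markers 3 fell in limma's test, none rose and the rest were not called. No marker was at 0. In bulk RNA, more cells of a type and more RNA per cell cannot be told apart, and the part of these shifts in the members' differences was not tested. Without 10-week pool 1 the differences were 3.53 for Gldc, 1.13 for the brightest Phgdh probe set and -0.65 for Mthfd1 on 1415916_a_at.

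**Figure D3:**
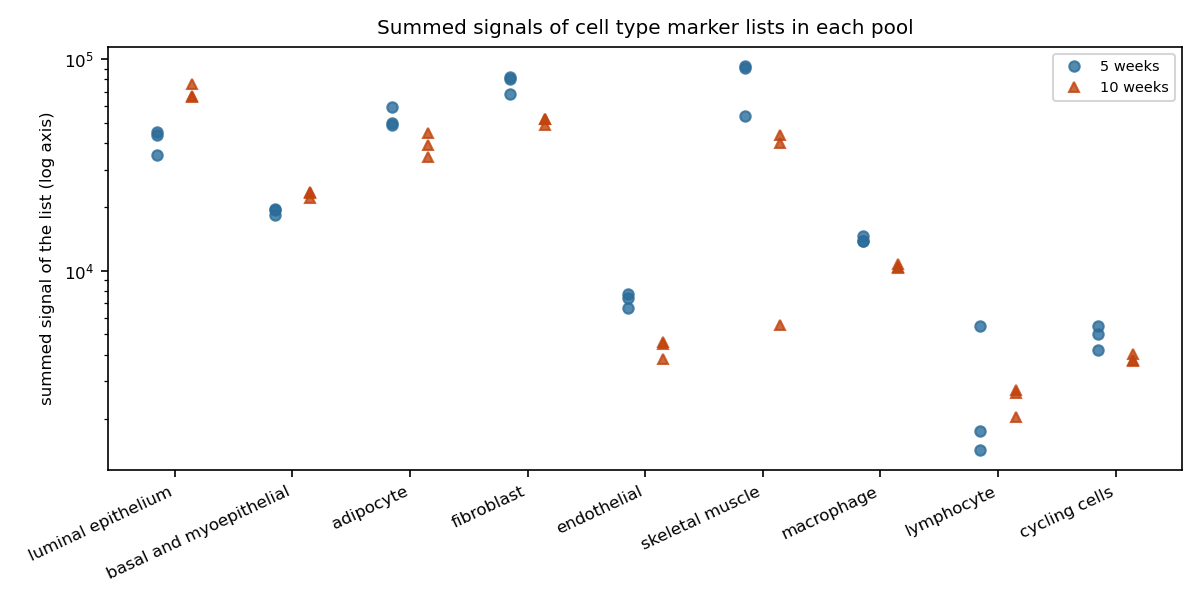
Summed signal (log axis) of 9 marker lists in each pool; circles are 5-week and triangles 10-week pools. Luminal and basal sums are higher at 10 weeks, the adipocyte, fibroblast, endothelial, macrophage, muscle and cycling sums lower, the lymphocyte sums overlap, and 1 pool at 10 weeks stands far below the others for muscle (5517).

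Around the members, 7 lists of pathway genes were tested in the same fit, at a Benjamini-Hochberg adjusted p of 0.05. Of 106 different genes tested, 25 rose at 10 weeks and 26 fell, beside 15.3% and 18.7% of all genes. The list of the amino acid response, which collects targets of the transcription factor ATF4, and the lists of folate, methionine and lipoamide genes had most of their calls in opposite directions.

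Of 16 genes of serine and glycine handling, 3 rose and 5 fell, with a median log2 difference of 0.02. Slc1a4, a neutral amino acid exchanger for serine and alanine, rose: its signal was 778, 463.4 and 621 at 10 weeks and 197.7, 173.7 and 233.8 at 5 weeks. The ages did not overlap, and the log2 difference was 1.46 ± 0.20 (SE, adjusted p = 0.000948) on its brightest probe set, 1423549_at. Its 3 probe sets ran from 0.48 to 1.46, 2 of them past the threshold, and averaged 0.95 (adjusted p = 0.00453). Without 10-week pool 1, which had the highest signal, another probe set became the brightest and gave 0.86 (adjusted p = 0.0167), and 1423549_at gave 1.29 (adjusted p = 0.00373). Its relative Slc1a5, the main glutamine carrier of many dividing cells and a serine carrier too, fell. It had 1456.1, 2038.6 and 2471.7 at 10 weeks against 5191.4, 6804.5 and 6090 at 5 weeks, a log2 difference of -1.61 ± 0.18 (SE, adjusted p = 0.000408). Slc7a10, an exchanger of small neutral amino acids that adipocytes express, fell by 1.41 on the log2 scale (adjusted p = 0.000567). Alas1, which uses glycine for the first step of haem synthesis, fell by 0.99 (adjusted p = 0.000567). Sfxn1, the mitochondrial serine carrier, fell by 0.44 (adjusted p = 0.00895). Sfxn1, Dld and the other genes outside the naming rule here and below, which are Mthfd1l, Mthfd2l, Aldh1l2, Slc19a1, Atic, Gart, Atf4, Asns and Pgk1, were picked for their roles after their values were seen.

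Of 18 genes of the folate cycle and folate transport, 1 rose and 6 fell, with a median of -0.08. The 1 that rose was Folr1, the folate receptor alpha gene, whose protein is also known as a folate binder of milk. Its signal was 11552.4, 9405 and 10304.7 at 10 weeks and 2594.8, 1543.2 and 1374.6 at 5 weeks. The ages were far apart, with a ratio of 5.67 and a log2 difference of 2.53 ± 0.21 (SE, adjusted p = 0.000102). Without 10-week pool 2, 2 genes of this list rose. Folr2, the receptor beta gene known from tissue macrophages, fell by 1.57 (adjusted p = 0.000864), in glands whose macrophage markers summed to 0.747 of the 5-week level with 3 lower and 1 higher, and that part was not tested. Aldh1l1, which oxidises formyl folate in the cytosol, fell by 1.18 (adjusted p = 0.00147). Its call was lost when its probe sets were averaged (-0.50, adjusted p = 0.104). Ggh, the hydrolase that trims folate polyglutamates, fell by 0.92 (adjusted p = 0.000775).

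Relatives of the MTHFD members also differed among themselves. Mthfd1l, the mitochondrial formate-releasing synthetase, fell by 0.83 (adjusted p = 0.0114). Its 10-week signals of 146.5, 174.7 and 107.6 lay around or below the array medians of 156.4 to 172.5, so the size of this fall is uncertain. Mthfd2l had a log2 difference of 0.31 ± 0.15 (SE) and Aldh1l2 of 0.17 ± 0.15 (SE), and neither passed the test (adjusted p = 0.144 and 0.432). Slc19a1, the reduced folate carrier, fell by 0.84 (adjusted p = 0.0234), and this call was lost without 5-week pool 2 (adjusted p = 0.0595) or 3 (adjusted p = 0.0774) and with averaged probe sets (-0.41, adjusted p = 0.0603).

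Of 12 genes of the methionine cycle and transsulfuration, 1 rose and 4 fell, with a median of -0.16. Nnmt, which spends methyl groups on nicotinamide, fell by 1.93 (adjusted p = 0.000708). Csad, an enzyme of taurine synthesis, fell by 1.17 (adjusted p = 0.00042) and Gamt, the last enzyme of creatine synthesis, fell by 0.76 (adjusted p = 0.00482). Srm, spermidine synthase, rose by 0.33 (adjusted p = 0.0174), a call lost without 10-week pool 2 (adjusted p = 0.0552) or 5-week pool 1 (adjusted p = 0.0557).

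Of 13 genes of lipoic acid attachment and lipoamide-dependent complexes, none rose in limma's test (0 also at an unadjusted p under 0.05) and 5 fell, with a median of -0.39. The count that fell was 3 without 10-week pool 2 or without 5-week pool 3. Dbt and Bckdhb, subunits of the branched-chain keto acid dehydrogenase, fell by 0.86 (adjusted p = 0.00322) and by 0.74 (adjusted p = 0.00384). Ogdh, of the citric acid cycle, fell by 0.70 (adjusted p = 0.0116). These complexes use the same lipoyl chemistry as glycine cleavage.

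Of 25 genes of the amino acid response, 13 rose and 1 fell, with a median of 0.42. The count that rose was 8 without 10-week pool 1, and 2 then fell. Slc7a5 and Slc3a2 encode the light and heavy chains of the large neutral amino acid exchanger. Slc7a5 had 4003.8, 3163.5 and 3175.4 at 10 weeks and 1486, 925.2 and 649.6 at 5 weeks, a log2 difference of 1.79 ± 0.25 (SE, adjusted p = 0.0011). Slc3a2 rose by 0.69 (adjusted p = 0.00147). Aldh18a1, of proline synthesis, rose by 1.05 (adjusted p = 0.000183), with 4 of its 5 probe sets called. Vldlr, a lipoprotein receptor gene, fell by 0.64 (adjusted p = 0.0159). Atf4 itself rose by 0.60 (adjusted p = 0.0325), a call lost without 10-week pool 1 (adjusted p = 0.104) or 3 (0.0862) or 5-week pool 2 (0.0679) or 3 (0.1). Asns, asparagine synthetase, rose by 0.47 (adjusted p = 0.021), a call lost without 10-week pool 1 (0.0698) or 2 (0.0709) or 5-week pool 1 (0.0677). Phgdh, Psat1, Psph, Shmt2 and Mthfd2 are known targets of ATF4 too, and their own differences, given above, ran from -0.41 to 1.08 on their brightest probe sets.

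**Figure D4:**
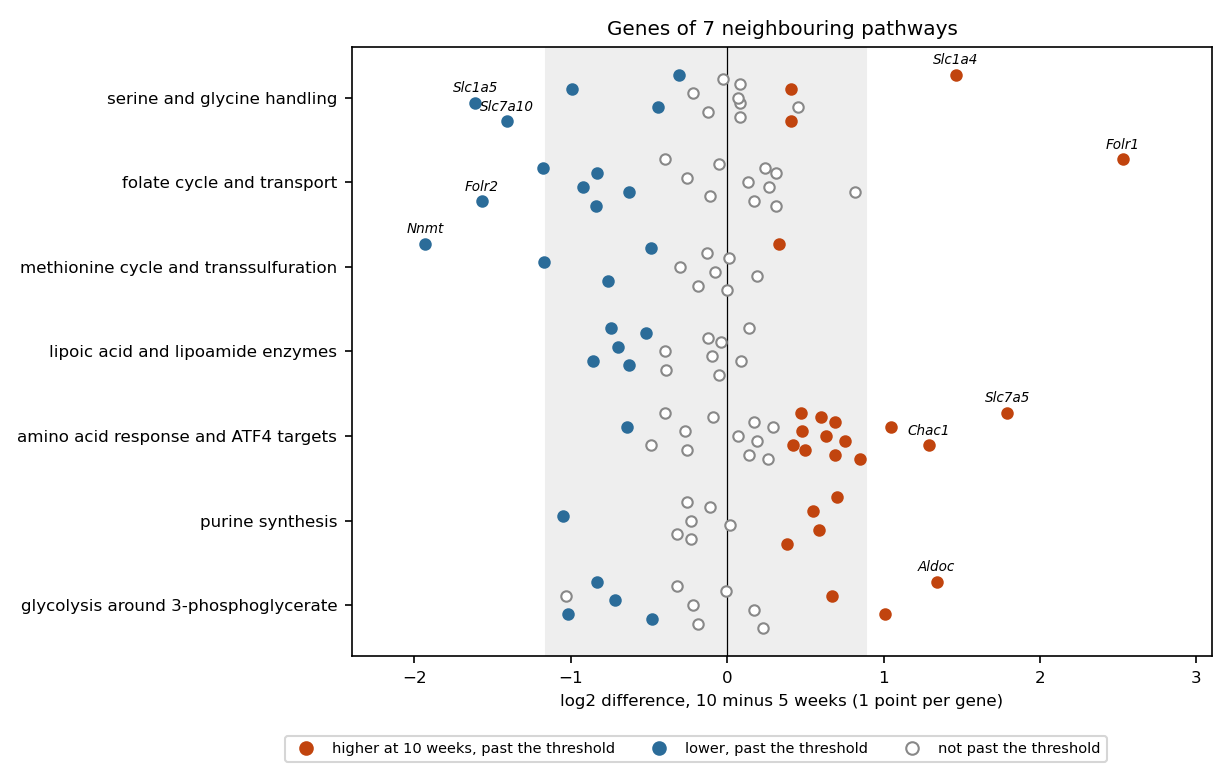
Log2 difference, 10 minus 5 weeks, of each tested gene of 7 pathway lists (1 point per gene; filled points passed limma's test, red higher and blue lower at 10 weeks, open points did not pass; the grey band spans the 5th to 95th percentile of all genes tested). Folr1 (2.53) is the highest point and Nnmt (-1.93) the lowest, and 13 of 25 amino acid response genes are filled on the higher side.

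Purine synthesis takes up folate carbon in the reactions of GART and ATIC. Of its 11 genes, 4 rose and 1 fell, with a median of -0.11. Gart and Atic did not pass the test, with log2 differences of -0.11 ± 0.15 (SE, adjusted p = 0.618) and -0.26 ± 0.12 (SE, adjusted p = 0.145). Impdh1, which turns the pathway toward guanine nucleotides, rose by 0.70 (adjusted p = 0.00231), and Adss, of adenine nucleotide synthesis, rose by 0.55 (adjusted p = 0.00346). Gmps rose by 0.38 on its brightest probe set (adjusted p = 0.0128), but its 3 probe sets ran from -0.49 to 0.38 and averaged -0.19 (adjusted p = 0.301). Prps1, which makes the ribose phosphate that purines are built on, fell by 1.05 (adjusted p = 0.000531).

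Glycolysis supplies the substrate of PHGDH. Of 14 glycolytic genes, 3 rose and 4 fell, with a median of -0.20. Pgk1, whose enzyme forms 3-phosphoglycerate, was nearly level, with a log2 difference of -0.01 ± 0.09 (SE, adjusted p = 0.967). Aldoc rose by 1.34 (adjusted p = 0.00046). Hk2 fell by 1.02 (adjusted p = 0.0077), Pfkp by 0.83 (adjusted p = 0.00387) and Aldoa by 0.72 (adjusted p = 0.00295), and the count that fell was 2 with averaged probe sets. Skeletal muscle also expresses Hk2 and Aldoa. The sum of its 8 markers was lower at 10 weeks, with 3 of them past the threshold, and that part was not tested. At 10 weeks Hk2, Aldoa and the muscle sum were all lowest in pool 1. At 5 weeks the muscle sum was lowest in pool 2 (53997), where Aldoa was lowest (12771) but Hk2 highest (4581.4). With averaged probe sets Pfkp (-0.59, adjusted p = 0.0584) and Aldoa (-0.33, adjusted p = 0.131) lost their calls, and 1 of the 5 Aldoa probe sets was called in the other direction.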

How the data were processed

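The authors deposited linear signal intensities for 45101 probe sets on 6 arrays, made from total RNA labelled with biotinylated UTP, per the labels. The mean of each array without the lowest and highest 2% was 500. The algorithm, detection calls, dates and batches are not given in the sources used here. Leaving out 64 controls gave 45037 probe sets, of which 34945 had a single symbol, 932 several and 9160 none. Symbols of the pathway genes were updated through RefSeq gene identifiers (GRCm38.p6), which matched 34741 of the single-symbol probe sets. Values were floored at 1 and analysed as log2(value + 32). A filter removed the dimmest 40% by mean log2 signal, leaving 27022. limma 3.58.1 in R 4.3.3 (lmFit, eBayes with a variance trend, age alone, 4 residual degrees of freedom, two-sided, Benjamini-Hochberg at 0.05) was fitted to all of them. The probe set with the highest mean log2 signal stood for a gene (13002 genes). The steps were tested on simulated data. Pools of an age hold different animals, so the spread between arrays covers pools and the array step together, and the number of arrays limits the precision. Named were all members; from each pathway list the 3 genes of lowest adjusted p in its prevailing direction and the biggest opposite call; and the 5 genes nearest to Gldc. The members and lists were chosen with earlier results of these data known. Alternatives changed the offset, filter, normalization, variance model, array weights and handling of probe sets, and left out each pool in turn. Plots used Python 3.11.15 and matplotlib 3.10.9.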

Additional observations from a re-analysis of the deposited data

How the results depend on the processing

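Over the alternatives run, the 22 probe sets of the members gave 326 values, of which 325 moved by less than 1 SD between pools. The exception was Gldc with an offset of 100 (3.02). Most of these values could not have moved by 1 SD, so the count is no measure of stability. The filter and variance-model alternatives leave a difference unchanged. With 3 pools per age, leaving out 1 pool cannot shift it by 1 SD. Averaging the probe sets of a gene gave 0.70 for Phgdh and 0.45 for Shmt1, against 1.08 and 0.13 on their brightest probe sets. The number of member genes past the threshold with lower signal, 1, became 0 with no filter, quantile normalization, median centring, no variance trend or array weights, and was 0 to 1 when single pools were left out. In those leave-outs the gene was Mthfd1 without 5-week pool 1 and Psph without 10-week pool 3. These counts use the brightest probe set of a gene. Counted over the 22 probe sets, 1 or 2 were lower and past the threshold under each of these alternatives. The number with higher signal was 2 to 3 under every alternative. Where it was 3, the gene added to Gldc and Phgdh was Shmt1. This was so with an offset of 100, with averaged probe sets and without 5-week pool 1 or 2. Apart from the averaged fit, another Shmt1 probe set was then the brightest and stood for the gene. For the pathway genes named, 588 of 607 alternative values kept their direction and their side of the threshold and 18 lost the call. Gmps reversed when its probe sets were averaged (-0.19). Atf4 also lost its call with no filter (adjusted p = 0.0636) and with no variance trend (0.0601), and Srm with no variance trend (0.0525). The genes called higher numbered 1399 to 2101 and those called lower 1887 to 2462 over all alternatives, beside 1992 and 2436. The cause of these changes was not tested. The labels link no 5-week pool to a 10-week pool, so the ages were compared as separate groups and no paired analysis was run. Signals near the array median, as for Gldc at 5 weeks, limit what a ratio can say.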
